A study of Mus musculus with 4 samples.

Results

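The cells described here are neutrophils, chosen cell by cell from the raw counts of unique molecular identifiers (UMIs, each standing for 1 captured transcript) in 4 single-cell RNA libraries of mouse skin and skin tumors. A cell was taken as a neutrophil when it held at least 1000 UMIs, at most 15% mitochondrial UMIs, at least 20 UMIs of S100a8 and S100a9 together, at least 1 of Csf3r, at most 1 of Csf1r, at most 5 of C1qa, C1qb and C1qc together and at most 1 of Cd3e. This gate found 259 of the 13124 cells that passed the UMI and mitochondrial limits, or 1.97%, out of 14795 barcodes. The study asked how immune cells differ between normal skin and squamous skin tumors. The 2 control skins came from C57BL/6 mice that received no tumor cells, and no vehicle injection or age was stated for them. The 2 tumors grew in the flanks of female and male C57BL/6 mice that were 8 to 10 weeks old when 2323 cells were injected under the skin, and they were taken about 2 weeks later. Line 2323 is 1 cell line, derived in the escape phase of a tumor from a mouse model that carries K14rtTA, tetOCre and P53-/- among its alleles. There the keratin 14 promoter drives the tetracycline-dependent activator rtTA in epithelial cells, and rtTA in turn switches on Cre. Both tumors thus share 1 origin, the 2323 line. All 4 tissues were digested with collagenase IV for 2 h and sorted for CD45+/DAPI- cells, that is, living leukocytes. The labels number the 2 libraries of each group as replicates without saying whether each came from 1 animal, so the p-values measure the spread between these libraries, which may be partly technical.

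Neutrophils are short-lived phagocytes that leave the bone marrow for the blood and enter inflamed tissue along gradients of chemokines read by Cxcr2 and other receptors. They carry antimicrobial proteins in granules that are filled in order during maturation, so a mature cell holds the proteins but little RNA for the earliest granules. In skin they arrive after wounding or infection, and in tumors they have been described with both growth-promoting and tumor-killing activities. S100a8 and S100a9 encode the 2 chains of calprotectin, a calcium- and zinc-binding protein that fills the neutrophil cytosol, Csf3r is the receptor for the granulocyte growth factor G-CSF, and Retnlg encodes a resistin-like protein made by neutrophils. In the GRCm38 build and the GENCODE annotation, the protein-coding genes S100a8 (chr3:90668978-90670035) and S100a9 (chr3:90692632-90695721) are close neighbours, while Csf3r is at chr4:126024550-126044440 and Retnlg at chr16:48872621-48874496.

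Cxcl2 (chr5:90903871-90905938), a chemokine that attracts neutrophils through Cxcr2, had one of the highest levels of any gene in these cells. Hspa1b (chr17:34956436-34959238), an inducible heat shock protein of the Hsp70 family, had the smallest p-value between tumor and control. The 100 bases that lie 31 to 130 bases before the RefSeq start of each of these genes (chr5:90903899 for Cxcl2, a little inside the GENCODE gene, and chr17:34959238 for Hspa1b) are shown because both genes belong to groups described below, inflammatory chemokines and heat shock genes. They are from RefSeq (GRCm38.p6), 5′ to 3′ on the strand of the gene, at chr5:90903769-90903868 (plus strand) and chr17:34959269-34959368 (minus strand).
Cxcl2: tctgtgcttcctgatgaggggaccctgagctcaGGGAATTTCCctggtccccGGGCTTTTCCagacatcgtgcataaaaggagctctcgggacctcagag
Hspa1b: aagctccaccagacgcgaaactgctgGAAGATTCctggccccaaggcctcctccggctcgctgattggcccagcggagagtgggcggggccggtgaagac
Capitals in Cxcl2 mark the 2 matches to a form of the site that NF-kappaB factors bind (GGG, 2 bases of any kind, then TTTCC), and capitals in Hspa1b mark the 1 match to GAANNTTC, a core of the heat shock element. Searched on both strands over 300-base windows around the start, the NF-kappaB form was found in 535 of 32851 promoters (1.63%) and GAANNTTC in 2582 (7.86%). A match of letters is a description of the sequence only.

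The libraries of control skin 1, control skin 2, 2323 tumor 1 and 2323 tumor 2 held 50932896, 52784293, 73904272 and 34893543 UMIs. The gate found 14, 60, 97 and 88 neutrophils in them, with 67842, 289706, 438146 and 349280 UMIs, so control skin 1 contributed by far the fewest cells and its values are the least precise. Any 2 libraries had 1 to 7 barcodes in common, none of them gated. Because S100a8 and S100a9 were used to choose the cells, their levels are given without a test. The median gated cell held 224.5 and 178.5 UMIs of the pair in the control skins and 152 and 92.5 in the tumors, and the median of the remaining cells was 0 in all 4 libraries. Few cells lay near the limit on S100a8 and S100a9. Between 20 and 29 UMIs, just inside, were 0, 1, 6 and 4 cells, and between 10 and 19, just outside but meeting the other limits, were 3, 0, 8 and 6. Gated cells with exactly 1 UMI of Csf3r numbered 2, 5, 4 and 11. Cells that met every limit other than Csf3r numbered 1, 4, 4 and 10, and those with 2 or more UMIs of Csf1r but otherwise in the gate numbered 1, 2, 7 and 6.

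The name neutrophil was checked on 11 markers that the gate did not use: Retnlg, Cxcr2, Il1r2, Mmp9, Ly6g, G0s2, Slpi, Hdc, Clec4d, Trem1 and Lcn2. A gated cell carried a median of 8, 8, 8 and 7 of them, whereas the median remaining cell carried 0, 1, 1 and 1. At least 5 markers were found in 14 of 14, 59 of 60, 95 of 97 and 84 of 88 gated cells. Among the remaining cells, 18, 44, 34 and 92 carried as many (0.581%, 1.41%, 0.721% and 4.79%). In control skin 1 and tumor 2, more such cells lay outside the gate than inside it. Ly6g, the surface antigen most used to sort mouse neutrophils, was nearly absent at the RNA level, with levels of 15.8 and 7.45 CPM (the UMIs of a gene per 1000000 UMIs that the genes past the low-count filter held in the gated cells of a library, after edgeR scaling) in the control skins and 4.77 and 3.01 CPM in the tumors. In gated cells, 1 UMI stood for 15.8 CPM in control skin 1, 3.73 in control skin 2, 2.38 in tumor 1 and 3.01 in tumor 2. Low levels therefore rest on few UMIs, above all in control skin 1. RNA released from broken cells gives UMIs of a gene in cells that do not express it. T cells (at least 2 UMIs of Cd3e) therefore served as the background, with each cell thinned to 1000 UMIs. Retnlg was then found in 28.6% and 35% of the neutrophils of control skin and 21.6% and 20.5% of those of tumor, against at most 0.106% of T cells. Unthinned, at medians of 4387, 4176, 4094 and 3105.5 UMIs per gated cell and 10603, 10826, 11162 and 9576.5 per T cell, the shares with Retnlg were 50%, 55%, 34% and 38.6% of gated cells and at most 0.317% of T cells. Il1b was found in 92.9%, 88.3%, 89.7% and 88.6% of thinned gated cells, against 1.67%, 1.90%, 0.962% and 3.53% of thinned T cells. Both genes were therefore well above what free RNA left in T cells of the same libraries. Among the 11 markers, Il1r2 was the most frequent in T cells. It was found in 3.13%, 3.39%, 6.35% and 20% of thinned T cells, against 71.4%, 88.3%, 83.5% and 88.6% of thinned gated cells. Unthinned, 16.6%, 15.8%, 24.6% and 51.8% of T cells had it. Whether this was free RNA was not tested.

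The neutrophil share was higher in both tumors than in both control skins, but not by more than 2 libraries per group can show. It was 0.450% in control skin 1 (14 of 3114 cells, exact Clopper-Pearson 95% interval 0.246 to 0.753%), 1.88% in control skin 2 (60 of 3190, 1.44 to 2.41%), 2.02% in 2323 tumor 1 (97 of 4813, 1.64 to 2.45%) and 4.38% in 2323 tumor 2 (88 of 2007, 3.53 to 5.37%). These intervals cover counting error only. The intervals of control skin 2 and tumor 1 overlapped, while control skin 1 lay below the other 3 libraries and tumor 2 above them. The means were 1.17 ± 1.01% and 3.20 ± 1.68% (SD, n = 2 each), a difference of 2.03 percentage points with a 2-sided exact permutation p of 0.333, the smallest that 2 against 2 libraries allow. It lay between 0.850 and 3.22 points when 1 library was left out. With at least 50 UMIs of S100a8 and S100a9 in the gate, tumor 1 (1.70%) lay below control skin 2 (1.79%). The denominator is CD45+ cells that survived digestion and sorting, so a share is not a number of neutrophils per piece of tissue.

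**Figure D1:**
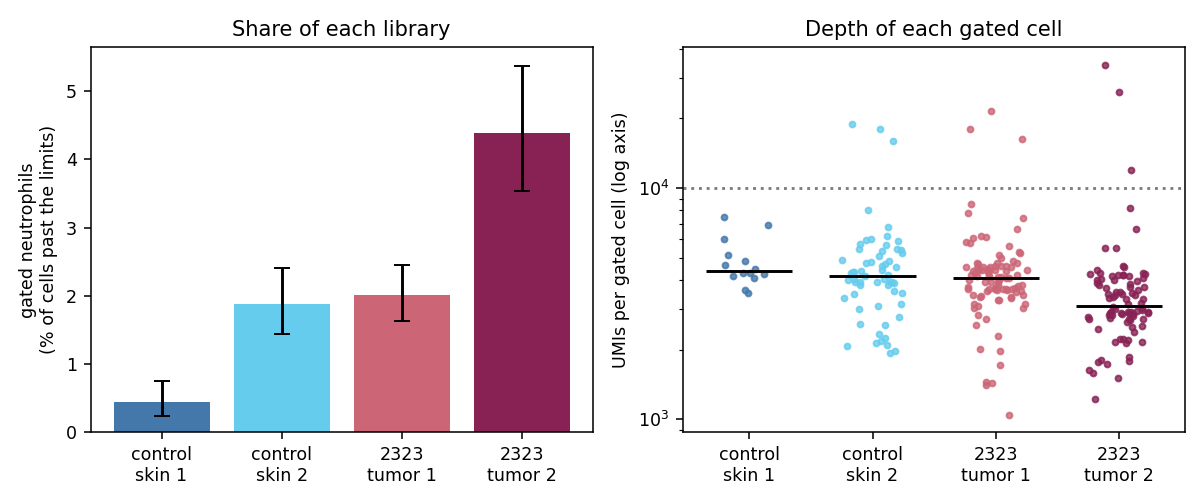
Share of gated neutrophils among cells past the UMI and mitochondrial limits (percent, with exact 95% intervals) and UMIs per cell, by library. The shares were 0.450% and 1.88% in the control skins and 2.02% and 4.38% in the tumors, and the median gated cell held fewer UMIs than the median remaining cell in all 4 libraries.

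Neutrophils held little RNA in every library. Their median of 4387 and 4176 UMIs in the control skins and 4094 and 3105.5 in the tumors compares with 11044.5, 11580, 12876.5 and 14066 in the remaining cells. The mean of the tumor medians minus that of the control medians was −681.75 UMIs (exact permutation p = 0.333). For detected genes the medians were 1372 and 1242.5 against 1273 and 1087, a difference of −127.25 (exact permutation p = 0.667). Neither difference could reach significance with this design. When 1 library was left out they lay between −1176 and −187.5 UMIs and between −220.25 and −34.25 genes. Mitochondrial UMIs made up a median of 0.0755%, 0.137%, 0.124% and 0.0969% of a gated cell.

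The chemokine and cytokine genes of these cells were led by Cxcl2 and Il1b in all 4 libraries. Cxcl2 reached 31717 and 23516 CPM in the control skins and 17958 and 21199 CPM in the tumors, against 725, 1206, 853 and 1556 CPM in the remaining cells of the same libraries. In the median neutrophil, Cxcl2 took 1.82%, 2.15%, 1.27% and 1.54% of all UMIs. Il1b, the inflammatory cytokine interleukin-1 beta, stood at 7546 and 6766 CPM in the control skins and at 7300 and 5512 CPM in the tumors. Il1r2, a decoy receptor that binds interleukin-1 without signaling, stood at 2494 and 2813 against 2646 and 2219 CPM, with no separation between the groups. Thbs1, the matrix protein thrombospondin 1, lay between 4278 and 4970 CPM in all 4 libraries, and its log2 fold change of 0.01 (SE 0.22, n = 2 each) was the closest to 0 of these genes.

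Among receptors, Ccr1, which reads CCL3 and other chemokines, stood at 2494 and 1893 CPM in the control skins and 1897 and 1750 CPM in the tumors. Cxcr2, the main receptor for CXCL1 and CXCL2, was lower, at 537 and 674 against 653 and 295 CPM, and tumor 2 alone lay apart. Cd14, a co-receptor for bacterial lipopolysaccharide, was at 2652 and 2008 against 2178 and 1946 CPM. Csf3r, part of the gate and so given as a description, was at 947 and 1323 CPM in the control skins and 1959 and 1471 CPM in the tumors. Of enzymes and transporters, the gelatinase Mmp9 was at 410 and 209 against 243 and 316 CPM. Slc11a1, a metal transporter of the phagosome, was at 821 and 1103 against 713 and 610 CPM. The groups overlapped for Mmp9 and did not for Slc11a1, whose log2 fold change was −0.56 (SE 0.29, adjusted p = 0.947). Of the transcription factors, Cebpb was at 6126 and 4832 against 5212 and 4138 CPM, Spi1, the myeloid master factor PU.1, at 837 and 548 against 548 and 490 CPM, and Cebpd far lower, at 47.4 and 101 against 71.5 and 93.2 CPM.

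**Figure D2:**
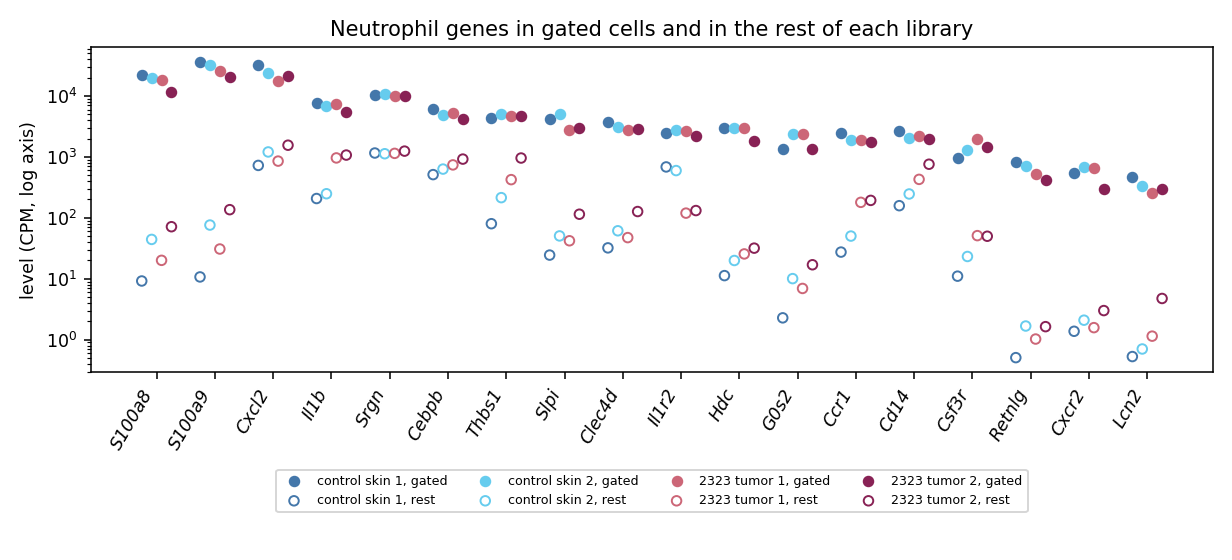
Level of neutrophil genes in CPM (log axis) by library, with gated neutrophils as filled and the remaining cells of the same library as open points. Cxcl2 lay between 17958 and 31717 CPM in neutrophils and between 725 and 1556 CPM in the remaining cells.

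The comparison of 2323 tumor with control skin asked which genes neutrophils express at another level in the tumor. UMIs of the gated cells were summed by library and compared with the quasi-likelihood test of edgeR, with p-values adjusted over all genes by the Benjamini-Hochberg method. No gene passed: of 3435 genes tested, 0 (0%) had an adjusted p under 0.05, and the lowest was 0.163. At an unadjusted p under 0.05 were 173 genes (5.04%), 105 higher in tumor (3.06%) and 68 lower (1.98%). DESeq2, run on the same sums, called 2 genes, Hspa1b (higher) and Rps6ka2 (lower), and gave 61 an unadjusted p under 0.05. With the replicate number as a block, edgeR called 22 genes, 16 higher and 6 lower in tumor. The 2 tumors lay above both control skins for 679 genes (19.8%) and below both for 569 (16.6%), so that the groups did not overlap for 36.3% of genes. Leaving out tumor 1, tumor 2 or control skin 1 gave 20, 9 and 19 called genes, with the lone library of a group assumed to vary like the other pair, and leaving out control skin 2 gave 0. The median log2 fold change was 0.03 and the median standard error 0.50, so a gene of typical precision had to differ 2.01-fold to lie 2 standard errors from no difference. Abundant genes were measured more closely (SE 0.22 for Cxcl2) and sparse genes less so. For scale, 12316 of the 31053 genes in the files had at least 1 UMI in a gated cell.

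The genes named in this paragraph were chosen after their values were seen, for their small p-values. Hspa1b was at 31.6 and 78.2 CPM in the control skins and 512 and 1050 CPM in the tumors (2, 21, 215 and 349 UMIs), a log2 fold change of 3.58 (SE 0.51, 95% interval 2.44 to 4.72, adjusted p = 0.163). It passed the threshold in 7 of 17 other settings, among them DESeq2, no low-count filter, the replicate number as a block and leaving out tumor 1, tumor 2 or control skin 1, with adjusted p-values from 1.50e-12 to 0.243 over the 17. In the remaining cells Hspa1b was at 775 and 591 against 2000 and 1622 CPM, so it was higher in both tumors there as well, and the gated cells lay below the remaining cells in every library. Lrrk2, a kinase expressed by myeloid cells, was at 126 and 123 CPM in the control skins and 16.7 and 6.01 CPM in the tumors (log2 fold change −3.34, SE 0.60, adjusted p = 0.416). The tumor levels of Lrrk2 rested on 7 and 2 UMIs. Rps6ka2, a ribosomal S6 kinase, was at 1421 and 749 against 243 and 313 CPM (log2 fold change −1.93, SE 0.37, adjusted p = 0.416). Ifi27l2a, an interferon-induced gene, was at 1374 and 1207 against 496 and 439 CPM (log2 fold change −1.46, SE 0.28, adjusted p = 0.416), in the opposite direction to the remaining cells at 178 and 318 against 943 and 580 CPM. Its control level rested on few cells, since 1 cell held 52 of its 87 UMIs in control skin 1 and another 110 of its 324 in control skin 2. In other settings Lrrk2 passed in 4 of 16, Rps6ka2 in 4 of 17 and Ifi27l2a in 1 of 17.

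Chemokines, the ligands that call in other leukocytes, numbered 11, of which 9 were tested: 1 was higher and 2 were lower in tumor at an unadjusted p under 0.05 (3.06% and 1.98% of all genes), and the median log2 fold change was −0.50 against 0.03 over all genes tested. That median turned with single libraries, to 0.25 without tumor 1 (10 tested), 0.35 without control skin 1 (11 tested) and 1.31 without control skin 2 (11 tested, where the median of all genes was 0.19), so both the libraries and the members tested changed. It was 0.03 with no low-count filter, where that of all genes was 0.36. The counts turned as well, to 3 higher and 1 lower without tumor 1 (2.91% and 1.43% of all genes), 2 and 1 without tumor 2 (1.42% and 1.12%) or control skin 1 (3.99% and 2.76%), 3 and 2 without control skin 2 (8.76% and 4.01%) or with the replicate number as a block (4.28% and 2.42%), and 5 and 1 with no low-count filter (2.50% and 0.918%). Their summed level was 37180 and 27692 CPM in the control skins and 21698 and 26471 CPM in the tumors, most of it Cxcl2. Cxcl2 itself had a log2 fold change of −0.50 (SE 0.22, 95% interval −0.98 to −0.01, adjusted p = 0.947), and both tumors lay below both control skins. Cxcl3, a related chemokine, was at 2116 and 1390 against 624 and 1164 CPM (log2 fold change −0.96, SE 0.36, adjusted p = 0.947). The opposite order was seen for Ccl4, which attracts T cells and monocytes: 553 and 425 CPM in the control skins and 1092 and 1585 CPM in the tumors, a log2 fold change of 1.48 (SE 0.32, adjusted p = 0.486), and it passed in 3 of 17 other settings. The median gated cell had no UMI of Ccl4 in any library, while the highest cell of each gave it 0.594%, 0.492%, 1.07% and 2.53% of its UMIs. The Ccl4 sums thus came from a minority of the cells. Its relative Ccl3 overlapped between the groups, at 1437 and 801 against 853 and 1203 CPM. Of 14 cytokines and their inhibitors, 10 were tested, and none had an unadjusted p under 0.05. Their median log2 fold change was 0.02, and that of Il1b was −0.16 (SE 0.23).

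All 10 tested of the 11 identity markers outside the gate had a log2 fold change below 0 (52.1% of all genes had one above 0), with a median of −0.29, and 1 of them, Slpi, had an unadjusted p under 0.05 (1.98% of all genes were lower at that level). Without tumor 2, 5 of the 10 were above 0 and the median was −0.12, without tumor 1 the median was −0.46, and with plain library sizes 3 were above 0. Slpi, a secreted inhibitor of neutrophil elastase, was at 4136 and 4992 CPM in the control skins and 2784 and 2932 CPM in the tumors (log2 fold change −0.68, SE 0.23, adjusted p = 0.947). Retnlg was at 821 and 708 against 534 and 424 CPM (log2 fold change −0.66, SE 0.30, 95% interval −1.32 to 0.00, adjusted p = 0.947), and the groups did not overlap. Clec4d, a lectin receptor, was at 3757 and 3074 against 2805 and 2851 CPM. The summed level of the 11 markers was 17572 and 18717 CPM in the control skins and 15887 and 12950 CPM in the tumors. S100a8 (22418 and 19868 against 18562 and 11470 CPM) and S100a9 (35948 and 32416 against 25704 and 20805 CPM) had the same order, as a description only, since the gate used them. Of the 5 primary granule proteins, only Mpo, the myeloperoxidase of the earliest granules, and Prtn3, a serine protease, had any UMI, 3 in all 4 libraries together. Of 14 secondary and tertiary granule proteins 8 were tested, with a median log2 fold change of −0.43 and none at an unadjusted p under 0.05. Lyz2, a lysozyme, was at 379 and 2634 against 1845 and 595 CPM and Hp, haptoglobin, at 189 and 421 against 574 and 385 CPM, with overlapping groups in both. Most Lyz2 came from 3 large cells in control skin 2 and from 2 in tumor 1, described below, and without cells of more than 10000 UMIs Lyz2 was at 378 and 481 against 336 and 645 CPM, and the 14 granule genes summed to 2110 and 2167 against 1895 and 2312 CPM.

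Among receptors and adhesion molecules 1 gene had an unadjusted p under 0.05, where 3.06% of all genes were higher and 1.98% lower at that level. Of the chemoattractant receptors, 9 of 10 were tested and none had an unadjusted p under 0.05 (median log2 fold change −0.26). Ccrl2, a receptor that binds chemerin without signaling, was at 853 and 998 CPM in the control skins and 1053 and 1206 CPM in the tumors (log2 fold change 0.28, SE 0.27). Of 11 adhesion and trafficking genes 9 were tested, and 1 was higher in tumor at an unadjusted p under 0.05, Icam1, a ligand of leukocyte integrins, at 31.6 and 41.0 against 105 and 87.2 CPM (log2 fold change 1.32, SE 0.52, adjusted p = 0.947). The Icam1 level of control skin 1 rested on 2 UMIs. The hyaluronan receptor Cd44 was at 2210 and 1922 against 1876 and 1681 CPM. Among 10 tested genes of pattern recognition and the inflammasome, 6 tested subunits of the NADPH oxidase and 3 tested Fc receptors, none had an unadjusted p under 0.05. Their median log2 fold changes were −0.21, −0.02 and 0.20. Of the oxidase that makes the respiratory burst, Cyba was at 426 and 533 against 455 and 595 CPM. Of the Fc receptor chains, Fcer1g was at 1879 and 1885 against 2169 and 1729 CPM and Fcgr3 at 300 and 585 against 570 and 493 CPM.

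Genes described in tumor neutrophils and suppressive myeloid cells numbered 22, of which 16 were tested: 0 were higher and 2 lower in tumor at an unadjusted p under 0.05, against 3.06% and 1.98% of all genes, and the median log2 fold change was −0.04. Their summed level was 17019 and 14615 CPM in the control skins and 15625 and 15136 CPM in the tumors. The 2 lower genes were Wfdc17 (868 and 626 against 517 and 328 CPM) and Olr1, a receptor for oxidized lipoprotein (205 and 127 against 76.3 and 78.2 CPM). Cd274, which encodes the checkpoint ligand PD-L1, was at 821 and 659 CPM in the control skins and 906 and 1185 CPM in the tumors (log2 fold change 0.51, SE 0.29, adjusted p = 0.947). Nos2, the inducible nitric oxide synthase, had 1 UMI in all gated cells.

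Of 41 interferon-induced genes, the longest list, 35 were tested, 8 were higher and 1 lower in tumor at that level, against 3.06% and 1.98% of all genes, and 25 of the 35 log2 fold changes were above 0 (52.1% of all genes were). The median was 0.42. The 8 included Ifit1, Herc6, Irf1, Gbp2, Ifi47, Tap1 and Nlrc5, and the 1 was Ifi27l2a. Gbp2, a GTPase induced by interferon-gamma, was at 0 and 48.4 CPM in the control skins and 200 and 189 CPM in the tumors (adjusted p = 0.795), and its level in the remaining cells was 13.6 and 12.5 against 114.6 and 120.5 CPM. Tap1, a peptide transporter for MHC class I, was at 15.8 and 26.1 against 76.3 and 132 CPM (log2 fold change 2.12, SE 0.61, adjusted p = 0.919). The control levels of both genes rested on few UMIs, with 1 of Tap1 and 0 of Gbp2 in control skin 1. The most abundant members were Rsad2, an antiviral enzyme, at 742 and 816 against 1990 and 848 CPM, and Slfn4 at 868 and 816 against 1549 and 953 CPM. Their groups did not overlap, but the 2 tumors differed from each other by more than tumor 2 differed from the control skins. The summed level of the 41 genes was 8288 and 7820 CPM in the control skins and 11397 and 7161 CPM in the tumors, so tumor 2 lay below both control skins. Without cells of more than 10000 UMIs it was 8267 and 6563 against 12043 and 7595 CPM, and tumor 2 then lay between the control skins. In the remaining cells the sum was 1484 and 2016 against 6947 and 5152 CPM, and the part of RNA from other cells in the neutrophil values was not tested. Without tumor 1, 4 members were higher and 4 lower (2.91% and 1.43% of all genes) and the median was −0.03. Without tumor 2, 5 were higher and 1 lower (1.42% and 1.12%) and the median was 0.90, and without control skin 2 the median was 0.95, where that of all genes was 0.19.

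Of MHC class I genes, which present peptides to CD8 T cells, all 6 tested had a log2 fold change above 0 (52.1% of all genes did), with a median of 0.28, and 1, H2-Q7, had an unadjusted p under 0.05 and was higher (3.06% of all genes). Without tumor 2, 4 of the 6 were above 0 and none was at that level, and the median was 0.19 without control skin 1 and 0.66 without control skin 2. B2m was at 1658 and 1770 CPM in the control skins and 1902 and 2081 CPM in the tumors (log2 fold change 0.21, SE 0.24), and H2-D1 at 1452 and 1680 against 1540 and 1723 CPM. In JAK-STAT signaling, 19 of 21 genes were tested and 1, the type I interferon receptor chain Ifnar1, was higher at an unadjusted p under 0.05, at 63.2 and 67.1 against 134 and 135 CPM (adjusted p = 0.947). Pim1, a kinase induced by cytokines, was at 2084 and 1885 against 1552 and 1780 CPM, and Stat3 at 537 and 607 against 875 and 779 CPM (log2 fold change 0.52, SE 0.28). Of glycolysis and hypoxia genes, 23 of 25 were tested, 1 was higher (Mif) and 1 lower (Slc2a3) at an unadjusted p under 0.05 (3.06% and 1.98% of all genes), and the median log2 fold change was 0.00. The glucose transporter Slc2a3 was at 1405 and 2042 against 1118 and 680 CPM (log2 fold change −0.95, SE 0.32, adjusted p = 0.947) and the lactate exporter Slc16a3 at 789 and 1114 against 927 and 653 CPM. Of survival genes, 10 of 12 were tested and 1 was higher at an unadjusted p under 0.05, Bcl2a1d, a member of a family of near-identical copies whose reads can be split between them. Mcl1, on which neutrophil survival depends, was at 2447 and 2492 against 2293 and 2024 CPM. Of lineage transcription factors, 14 of 17 were tested and 1, Klf2, a factor of quiescent leukocytes, was lower at an unadjusted p under 0.05 (1.98% of all genes), at 1105 and 853 against 465 and 629 CPM (log2 fold change −0.83, SE 0.30, adjusted p = 0.947).

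**Figure D3:**
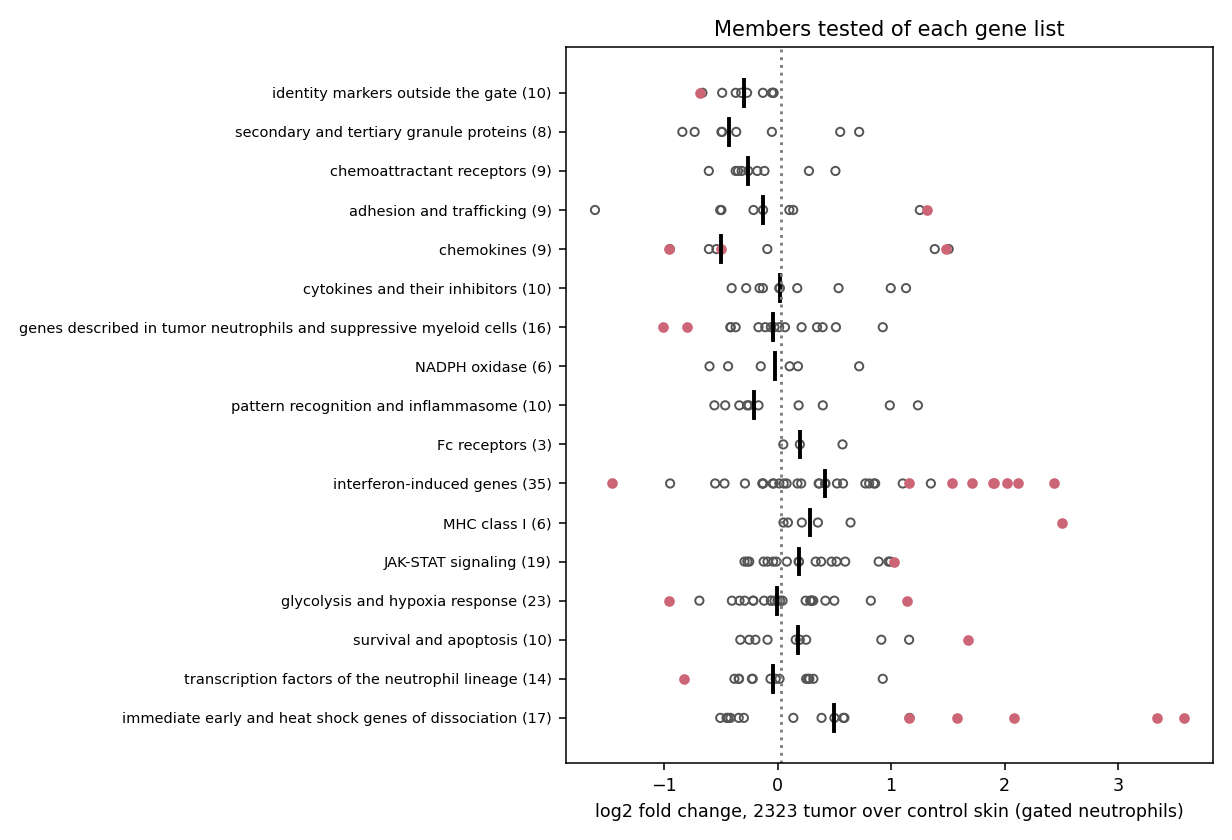
Log2 fold change of 2323 tumor over control skin for each tested member of the gene groups, with filled red points at an unadjusted p under 0.05, black bars at the group's median and a dotted line at the median of all 3435 genes (0.03). The interferon-induced genes had 8 members higher and 1 lower at that level, and the chemokines 1 higher and 2 lower.

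Of immediate early and heat shock genes, which tissue digestion can induce, all 17 were tested, and 5 were higher and 0 lower in tumor at an unadjusted p under 0.05, against 3.06% and 1.98% of all genes, with a median log2 fold change of 0.50. The median was 0.32 without tumor 2, where 3 were higher (1.42% of all genes), 0.33 without control skin 1, 0.34 without tumor 1, 0.74 without control skin 2 (where that of all genes was 0.19) and 0.18 after thinning each cell to 1000 UMIs. The 5 were Egr1, Hspa1a, Hspa1b, Hsp90aa1 and Hspa8, so 4 of them encode heat shock proteins. Hspa1a, the near-identical copy of Hspa1b, with which it can share reads, was at 47.4 and 96.9 CPM in the control skins and 226 and 1447 CPM in the tumors. Hsp90aa1, a chaperone of the HSP90 family, was at 268 and 395 against 510 and 2415 CPM. In both genes tumor 2 lay far above tumor 1. The immediate early genes did not share a direction. Egr1, a zinc finger factor, was at 174 and 63.3 against 200 and 394 CPM, and Atf3, a stress-induced factor, at 442 and 525 against 663 and 812 CPM. Dusp1, a phosphatase that ends MAP kinase signaling, was at 1942 and 2425 against 1687 and 1528 CPM, while Junb at 1910 and 2943 against 2019 and 1844 CPM and Fos at 521 and 820 against 1227 and 568 CPM overlapped. The groups did not overlap for 8 members that were higher and 4 that were lower in tumor, against 19.8% and 16.6% of all genes. With cells of at most 10 MHC class II UMIs, 5 members were higher and 2 lower at an unadjusted p under 0.05 (4.58% and 3.56% of all genes). When the gate also asked for Retnlg or Cxcr2, 4 were higher and 2 lower (5.34% and 3.64%). Without cells of more than 10000 UMIs the 17 genes summed to 11385 and 12710 against 11658 and 12522 CPM, and the groups overlapped. The part of digestion and sorting in these values was not tested.

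**Figure D4:**
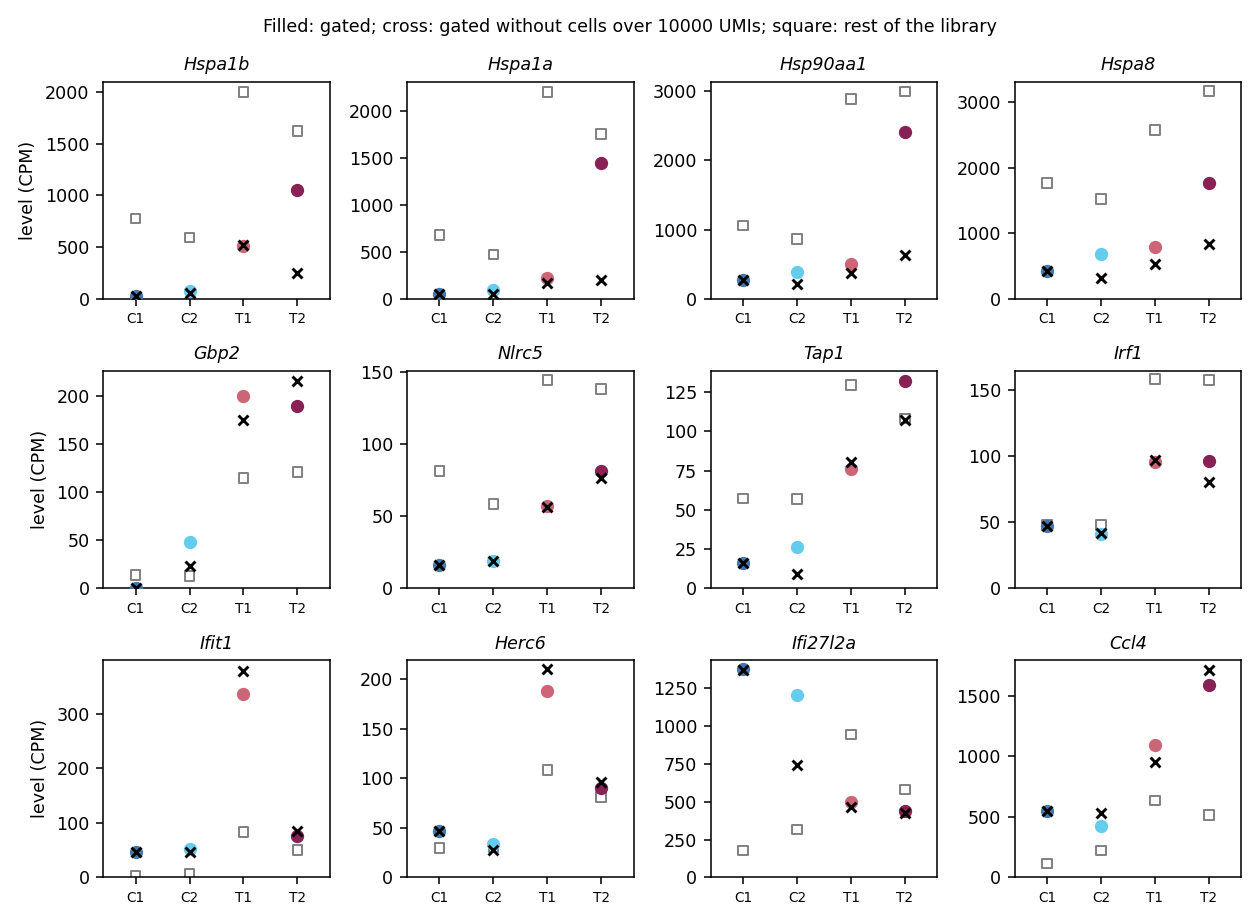
Level in CPM of heat shock and interferon-induced genes in gated neutrophils (filled points), in gated neutrophils of at most 10000 UMIs (crosses) and in the remaining cells (open squares), for control skins 1 and 2 (C1, C2) and 2323 tumors 1 and 2 (T1, T2). Hspa1b was at 1050 CPM in tumor 2 with all gated cells and at 246 CPM without the large ones.

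A few large cells carried part of these sums. Among the 259 gated cells, 9 held more than 10000 UMIs, 3 each in control skin 2, tumor 1 and tumor 2, and they gave 18.2%, 12.7% and 20.6% of the gated UMIs of those libraries and none of control skin 1. The 9 carried between 5 and 10 of the 11 neutrophil markers. Among them, 5 also carried 278 to 875 UMIs of MHC class II genes, which mature neutrophils hardly express and dendritic cells express strongly, and the other 4 carried 3 to 9. In tumor 2, a pair of these cells held 291 and 136 of the 481 Hspa1a UMIs of the library, 203 and 82 of its 349 Hspa1b UMIs, and 23 and 82 of its 106 UMIs of Ccr7, a receptor of migrating dendritic cells. Without the 9 cells, Hspa1b was at 31.5 and 56.1 CPM in the control skins and 525 and 246 CPM in the tumors (log2 fold change 2.97, adjusted p = 0.126), and Hspa1a at 47.2 and 46.7 against 164 and 204 CPM. The groups did not overlap for either gene, and tumor 2 no longer stood apart. On these cells edgeR called 0 of 2989 genes, with 227 at an unadjusted p under 0.05, and 11 interferon-induced genes were higher and 1 lower of 33 at that level (4.35% and 3.25% of all genes). Whether the large cells were doublets, 2 cells in 1 droplet, was not tested.

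**Figure D5:**
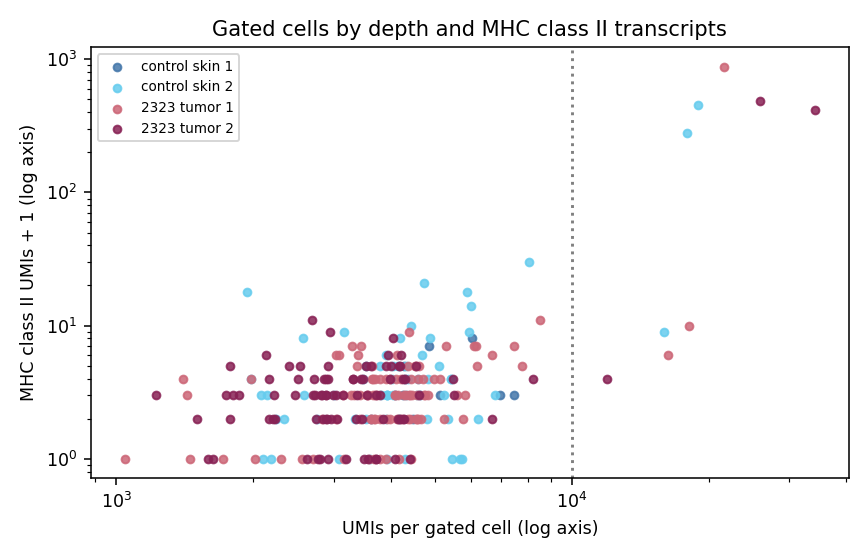
UMIs of MHC class II genes in each gated cell against its total UMIs (log axes), by library. Most cells lay below 10000 UMIs, and 5 of the 9 cells above it held at least 278 MHC class II UMIs.

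Markers of other cell types were low in the gated cells apart from those large ones. The 8 MHC class II and dendritic cell genes summed to 632 and 3629 CPM in the control skins and 2672 and 3335 CPM in the tumors, with Cd74 the most abundant and Xcr1 at 0. Without the large cells the sums were 630, 1084, 619 and 745 CPM, against 22564, 21302, 20075 and 16169 CPM in the remaining cells. The 6 monocyte genes summed to 126, 823, 560 and 286 CPM, led by Plac8, and the 11 macrophage genes to 332, 525, 677 and 641 CPM, led by Apoe, with C1qa, C1qb and C1qc at 0 in control skin 1. The limits on Csf1r and C1q in the gate hold both lists down. Without the large cells the monocyte genes summed to 126, 126, 221 and 261 CPM, higher in both tumors than in both control skins. T and NK cell genes summed to 78.9, 89.4, 23.8 and 174 CPM, cell cycle genes to 15.8, 11.2, 14.3 and 39.1 CPM, mast cell and basophil genes to at most 15.8 CPM, eosinophil genes to at most 18.04 CPM with Epx, Prg2 and Il5ra at 0, and keratinocyte and fibroblast genes to at most 15.8 and 14.9 CPM. B cell genes had 1 UMI and red blood cell genes 0. The part of these cell types in the tumor differences was not tested.

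Neutrophils differed among themselves in Retnlg. At full depth, 7, 33, 33 and 34 gated cells had at least 1 UMI of it and 7, 27, 64 and 54 had none. The levels of 18 genes were compared between these cells, and 5 had the same order in all 4 libraries. In cells thinned to 1000 UMIs, those with Retnlg held means over the 4 libraries of 22.3 UMIs of S100a8 and 34.2 of S100a9, and those without it 15.6 and 25.3, with the same order in 4 of 4 libraries. The reverse order in 4 of 4 libraries was found for Cd14 (1.54 with and 2.49 without), Ifitm1, an interferon-induced membrane protein (1.04 and 1.53), and Spp1, which encodes osteopontin (0.170 and 0.818). Cxcl2 (21.04 and 21.9) and Thbs1 (4.58 and 4.49) were nearly level. The gate itself used S100a8 and S100a9. These values describe a split made on the cells' own counts, carry no test and are given without the share over all genes.

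To see where neutrophils differed from other myeloid cells, the tumor effect was compared with that in C1q-high macrophages (at least 2 UMIs of Csf1r and 20 of C1q) and in Ly6c2 monocyte-like cells (at least 2 UMIs of Csf1r and 2 of Ly6c2, at most 5 of C1q), with library as a block. The macrophages numbered 71, 180, 1629 and 606 and the monocyte-like cells 18, 56, 174 and 62. The difference between the effects had an adjusted p under 0.05 for 62 of 9049 genes against macrophages (0.685%), with 39 higher (0.431%) and 23 lower (0.254%) in neutrophils. Against monocyte-like cells it did for 16 of 5494 genes (0.291%), with 11 higher (0.2%) and 5 lower (0.091%). At an unadjusted p under 0.05 were 506 genes (5.59%) and 265 (4.82%). Without the large cells the counts were 28 (0.311%), with 25 higher (0.277%) and 3 lower (0.0333%), and 23 (0.437%), with 14 higher (0.266%) and 9 lower (0.171%). Of these, 22 and 10 were among the genes called with the large cells. Over all genes tested, the median difference in tumor effect was 0.21 against macrophages and 0.11 against monocyte-like cells. Without the large cells it was 0.42 and 0.08. More of all genes thus lay on the side higher in neutrophils, before any threshold. The counts also moved with single libraries, to 20, 15, 43 and 159 against macrophages and to 9, 0, 24 and 70 against monocyte-like cells without tumor 1, tumor 2, control skin 1 and control skin 2. Within macrophages themselves, 156 genes were higher (1.26%) and 268 lower (2.16%) in tumor, and within monocyte-like cells 6 (0.0836%) and 12 (0.167%). Cd207, the Langerhans cell lectin, was at 1287 and 853 CPM in the macrophages of control skin and at 1.51 and 10.3 CPM in those of tumor, so a difference in makeup and a difference within cells cannot be told apart in this comparator.

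The differences named below were of 2 kinds. In the first, the tumor level was far below the control level in the comparator, and in neutrophils it was higher or less far below. Zeb1, a transcription factor, was at 158 and 186 CPM in neutrophils of control skin and 291 and 352 CPM in those of tumor, but at 625 and 617 against 44.2 and 140 CPM in macrophages. The difference was 3.95 on the log2 scale (SE 0.57, adjusted p = 1.30e-08), and it passed in all 11 settings run. That from monocyte-like cells was 2.67 and passed in 6 of 11. Cacnb2, a calcium channel subunit, was at 47.4 and 22.4 against 45.3 and 60.1 CPM in neutrophils (3, 6, 19 and 20 UMIs) and at 447 and 316 against 2.87 and 7.28 CPM in macrophages (difference 7.20, SE 0.72, adjusted p = 8.40e-20, all 11 settings). Myo1d, an unconventional myosin, was at 332 and 302 against 226 and 262 CPM in neutrophils and 72.5 and 42.9 against 2.01 and 9.68 CPM in macrophages (difference 3.34, SE 0.57, adjusted p = 7.92e-06, 8 of 11 settings). Both tumors lay below both control skins in neutrophils too, and the effect within macrophages had an adjusted p of 0.0656 by edgeR. Il1r2 belonged here too, with a difference of 2.18 (SE 0.58, adjusted p = 0.0324) from macrophages at 521 and 495 against 102 and 122 CPM.

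In the second kind, the comparator had more of the gene in both tumors than in both control skins, while neutrophils held it at a level above the comparator's. In the comparisons named below, the comparator's own tumor effect passed only for Pilra (edgeR adjusted p = 0.00748). Its edgeR adjusted p was 0.0719 for Il1b, 0.275 for Acod1 and 0.169 for Lcn2. Of the 62 and 16 genes called, 32 and 4 were also called within the comparator. Il1b in monocyte-like cells was at 299 and 580 CPM in control skin and 1743 and 2640 CPM in tumor, below the 5512 to 7546 CPM of neutrophils in every library, and the difference was −2.46 (SE 0.53, adjusted p = 0.00959, 7 of 11 settings). Acod1, the enzyme that makes itaconate, was at 4910 and 3897 against 3437 and 2899 CPM in neutrophils and 2.96 and 52.6 against 132 and 199 CPM in monocyte-like cells (difference −2.93, SE 0.62, adjusted p = 0.00788, 6 of 11 settings). Over those settings the Acod1 difference lay between −6.12 and −1.97. Pilra, an inhibitory receptor of myeloid cells, was at 174 and 149 against 176 and 150 CPM in neutrophils and 18.01 and 11.6 against 154 and 110 CPM in macrophages (difference −3.08, SE 0.61, adjusted p = 0.000375, 7 of 11 settings). Lcn2, an iron-sequestering granule protein, was at 474 and 332 against 260 and 298 CPM in neutrophils and at 0 and 0 against 16.6 and 14.8 CPM in monocyte-like cells, so the size of its fitted difference depends on the prior count. That difference passed in 5 of 11 settings. The part of RNA released from neutrophils in the values of these comparators was not tested.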

How the data were processed

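The authors deposited 1 matrix of UMI counts per library (10x 3′ libraries, mouse genome mm10). Cell Ranger 7.1.0 stands in the submitters' notes and 7.0.1 in the file headers. No cell was removed beyond the stated limits and no doublet caller was run. Counts of gated cells were summed per library, filtered with filterByExpr, scaled by TMM and fitted with edgeR 4.0.16 (quasi-likelihood test, Benjamini-Hochberg adjustment) in R 4.3.3. DESeq2 1.42.0 was an alternative. CPM values are relative to the scaled total of the tested genes for gated cells and of all detected genes for other cells, and since 3′ libraries count 1 tag per transcript they were not divided by length. Differences in tumor effect used the interaction of cell class and group with library as a block. The members and gene lists were chosen with earlier results of these data known. Named genes were the 2 most abundant of each list, those the study names for neutrophils, Retnlg, and the 10 interaction genes of smallest p past the threshold. Others were chosen after their values were seen. Of 31053 gene identifiers, 30934 were found in GENCODE. Thinning to 1000 UMIs used 1 seeded draw. The fits were also run on simulated counts with known changes, and the share of changes recovered is not reported here. Aldoa and Clec7a were not analysed here. Some named genes and alleles are not reported here.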

Additional observations from a re-analysis of the deposited data

Results flagged for a closer look

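The tumor effect on 10 genes differed between neutrophils and C1q-high macrophages with the smallest p-values past the threshold, by edgeR's test of the difference itself. The differences on the log2 scale were 7.20 for Cacnb2, 3.95 for Zeb1, 4.63 for Tbc1d4, 5.42 for Mreg, 3.34 for Myo1d, 6.31 for Cacna1e, 13.46 for Cxcl1, −5.16 for Lyz1, −3.08 for Pilra and 4.69 for Zfp366. Cxcl1 had no UMI in the neutrophils of either control skin and 15 and 6 in those of the tumors, so the size of its value depends on the prior count. Zfp366 was detected in tumor neutrophils in the large cells alone, and 96.6% of the tumor UMIs of Tbc1d4 came from them. Without the large cells the difference for Tbc1d4 was 0.31 and no longer passed. Against monocyte-like cells it was then 0.99 (edgeR adjusted p = 0.998). Lyz1, which can share reads with its close copy Lyz2, had 65 UMIs in neutrophils of control skin 2, 62 of them in 1 cell, 2 in those of tumor 2 and none in the other libraries.

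Against Ly6c2 monocyte-like cells, the 10 differences were 5.39 for Tbc1d4, 2.96 for Nr4a3, 4.74 for Ccr7, 11.87 for Ccl22, −6.77 for Lcn2, 2.67 for Zeb1, 8.56 for Cacna1e, −2.93 for Acod1, 5.64 for Mreg and −2.46 for Il1b. The 50 UMIs of Ccl22 in neutrophils all came from 1 large cell of tumor 2, and 99.2% of the tumor UMIs of Ccr7 came from large cells. For Mreg that share was 61.5%, and its difference from monocyte-like cells passed in 4 of 10 other settings and not without the large cells (4.29, edgeR adjusted p = 0.246), while that from macrophages passed in 10 of 10, also without them (4.31, edgeR adjusted p = 0.00310). Cacna1e rested on 15 UMIs in gated cells. It was at 0 CPM in the monocyte-like cells of both tumors, so the size of its value depends on the prior count. The same holds for Ccl22, which had no UMI in the neutrophils of either control skin. Nr4a3, a nuclear receptor induced by stimulation, was at 458 and 227 CPM in neutrophils of control skin and 331 and 635 CPM in those of tumor, and at 308 and 181 against 29.9 and 68.1 CPM in monocyte-like cells. Of the 211 UMIs of Nr4a3 in neutrophils of tumor 2, 57 remained without the large cells, and its difference was then 2.15 (edgeR adjusted p = 0.00322). It passed in 7 of 11 other settings, and not with the replicate number as a block, after thinning, or without tumor 1 or tumor 2 (edgeR adjusted p = 0.148, 0.840, 0.0625 and 0.0713).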

How the results depend on the processing

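With 2 libraries a group, 14 neutrophils in control skin 1 and 67842 UMIs there, depth limits the comparison most in that library. The mean share of neutrophils stayed higher in tumor in all settings run, with differences of 0.850 to 3.22 percentage points when 1 library was left out. With at least 50 UMIs of S100a8 and S100a9, tumor 1 (1.70%) lay below control skin 2 (1.79%), and the exact permutation p was 0.667. The differences in median UMIs (−1176 to −187.5) and median genes (−220.25 to −34.25) kept their direction too. The count of 0 genes between tumor and control became 2 with DESeq2, 1 when the gate also asked for Retnlg or Cxcr2 and 15 with no low-count filter, and lay between 0 and 20 when 1 library was left out. The 62 genes against macrophages became 16 with DESeq2, 31 with cells of at most 10 MHC class II UMIs, 28 with cells of at most 10000 UMIs (added after seeing the data), 40 with no low-count filter and 15 after thinning, and lay between 15 and 159 without 1 library. With library sizes not scaled by TMM they were 80, with 39 higher and 41 lower. The 16 against monocyte-like cells became 3 with DESeq2, 28 with at most 10 MHC class II UMIs and 3 after thinning, and lay between 0 and 70 without 1 library. Zfp366 against macrophages reversed to −6.63 and −7.00 with at most 10 MHC class II and at most 10000 UMIs, and Lyz1 lay between −11.73 and 8.51 when 1 library was left out. The causes were not tested. Of 414 values of single genes under alternatives, 316 kept direction and side of the threshold, 24 passed it newly, 71 no longer passed and 3 reversed.

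The replicate numbers are not stated to mark a shared day or animal. Deviations of same-numbered libraries from their group means had r = 0.05 across 3123 genes. With 2 libraries a group, the 2 pairs mirror each other and give a single value. It cannot decide whether a day or animal was shared. With the replicate number as a block, 22 genes were called between tumor and control, 13 against macrophages and 4 against monocyte-like cells.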

Other observations

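The genes in this paragraph were chosen for their abundance after their values were seen. Srgn, the proteoglycan serglycin that packs granule contents, was at 10309 and 10674 CPM in neutrophils of control skin and at 10082 and 9828 CPM in those of tumor, against 1128 to 1244 CPM in the remaining cells. Slc7a11, the cystine transporter of glutathione synthesis, was at 7246 and 5853 against 5498 and 4956 CPM, and it lay between 120 and 416 CPM in the remaining cells. Fth1, the ferritin heavy chain, was at 23871 and 28247 against 28197 and 36365 CPM. The groups did not overlap for Srgn and Slc7a11, with log2 fold changes of −0.08 (SE 0.20) and −0.32 (SE 0.22), both within 2 standard errors of 0.

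Cells without a UMI of Retnlg or Cxcr2 numbered 1 of 14, 14 of 60, 16 of 97 and 29 of 88 gated cells. Cd207 had 4 and 12 UMIs in gated cells of the control skins and 0 in those of the tumors, at 3.91% and 3.96% of its level in the remaining cells of control skin.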
